A study of Mus musculus with 18 samples.

Results

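Transcripts of 10 chemokine genes that recruit neutrophils, T cells and other lymphoid cells to the gut were followed through 18 intestinal tumours of Apc Min mice. The genes were Cxcl1, Cxcl2, Cxcl5, Cxcl9, Cxcl10, Cxcl12, Cxcl13, Ccl20, Ccl25 and Ccl28. They were taken by name, with earlier results of these data known, and all 10 were among the 24062 genes of the table. All 10 also passed the filter on low counts, with 14271 genes in all. The design text asks how expression differs between tumours with the Macrod2 genotype. Macrod2 is a macrodomain hydrolase, which takes ADP-ribose off modified proteins. The mice carried ApcMin/+/Macrod2-/- (hom), ApcMin/+/Macrod2-/+ (het) or ApcMin/+/Macrod2+/+ (wt), so the Min mutation of the tumour suppressor Apc was common to every group, the wt tumours included. All were male C57BL/6 mice, the titles number 6 mice per genotype with 1 tumour each, and no age or treatment is given by the labels. By their source labels 17 tumours came from the large intestine (6 hom, 5 het and 6 wt), and het 4, from the small intestine, entered no comparison. The numbered mice were taken as the replicates.

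Chemokines are small secreted proteins that guide leukocytes through G-protein-coupled receptors. Cxcl1, Cxcl2 and Cxcl5 carry the ELR motif and draw neutrophils through Cxcr2, and they are classic targets of NF-kB and of IL-17 signalling in epithelium. Cxcl9 and Cxcl10 are induced by interferon and draw activated T cells and natural killer cells through Cxcr3. Cxcl12 is made by stromal and endothelial cells and acts on Cxcr4 and the scavenger Ackr3, and Cxcl13 draws B cells into follicles through Cxcr5. Ccl20 is made by the epithelium over lymphoid follicles and acts on Ccr6. Ccl25 is the gut-homing chemokine of the small intestinal epithelium and acts on Ccr9, while Ccl28 is made by mucosal epithelium, the colon included, and draws IgA-producing cells through Ccr10.

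Of the 10 genes, 6 lie on mouse chromosome 5 in the mm10 assembly. Cxcl5 (90759360 to 90761624), Cxcl1 (90891241 to 90893115) and Cxcl2 (90903871 to 90905938) follow each other on the + strand, and 10.8 kb separate Cxcl1 from Cxcl2. Cxcl9 (92321347 to 92328079) and Cxcl10 (92346638 to 92348889) are neighbours on the - strand, 18.6 kb apart, and Cxcl13 lies farther along the + strand (95956951 to 95961068). Cxcl12 is on chromosome 6 (117168535 to 117181367), Ccl20 on chromosome 1 (83116766 to 83119167), Ccl25 on chromosome 8 (4325210 to 4360020) and Ccl28 on chromosome 13 (119623819 to 119654359), each on the + strand. Cxcl10 overlaps Art3 and Ccl25 overlaps Elavl1 on the opposite strand, and the labels do not state whether counting used the strand. Reads of each overlapping pair may therefore be mixed. Of the 50-base stretches of Cxcl2 transcripts, 5.35% also occur in Cxcl3, so its count is the least certain of the 10 in this respect.

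The promoters of both neighbouring pairs are shown because the members of each pair are textbook targets of the same inducers, and because the later results set these genes against NF-kB and interferon gene lists. Each is the 250 bases before the RefSeq start on GRCm38.p6, read in the direction of the gene. Capitals mark matches on either strand to a form of the NF-kB site (GGG and TTCC with any 3 bases between them) or to a form of the interferon-stimulated response element (GAAA and GAAA with any 2 bases between them). The windows are chr5:90890995-90891244 on the + strand for Cxcl1, chr5:90903649-90903898 on the + strand for Cxcl2, chr5:92328080-92328329 on the - strand for Cxcl9 and chr5:92348890-92349139 on the - strand for Cxcl10.
Cxcl1: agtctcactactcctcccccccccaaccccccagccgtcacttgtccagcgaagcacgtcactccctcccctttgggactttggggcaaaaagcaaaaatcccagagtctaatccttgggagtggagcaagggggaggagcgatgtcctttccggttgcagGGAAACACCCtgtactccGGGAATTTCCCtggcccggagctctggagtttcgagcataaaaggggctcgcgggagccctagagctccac
Cxcl2: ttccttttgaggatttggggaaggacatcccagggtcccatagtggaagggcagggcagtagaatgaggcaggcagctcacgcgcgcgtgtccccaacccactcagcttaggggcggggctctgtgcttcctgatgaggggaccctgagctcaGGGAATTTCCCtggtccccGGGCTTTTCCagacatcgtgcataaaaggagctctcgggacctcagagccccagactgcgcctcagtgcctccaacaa
Cxcl9: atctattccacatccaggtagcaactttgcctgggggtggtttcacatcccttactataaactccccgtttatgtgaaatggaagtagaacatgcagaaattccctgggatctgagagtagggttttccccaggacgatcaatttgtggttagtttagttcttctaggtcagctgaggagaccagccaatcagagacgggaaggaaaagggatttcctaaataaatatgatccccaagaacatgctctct
Cxcl10: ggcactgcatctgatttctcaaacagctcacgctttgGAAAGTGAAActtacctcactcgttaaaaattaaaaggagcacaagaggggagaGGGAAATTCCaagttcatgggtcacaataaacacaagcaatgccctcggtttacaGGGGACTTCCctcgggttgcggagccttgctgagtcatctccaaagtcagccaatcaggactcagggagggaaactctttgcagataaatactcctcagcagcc

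Cxcl1 held 3 matches to the NF-kB form, beginning 89, 71 and 70 bases before the start, and Cxcl2 held 3, at 97, 96 and 78. In each gene the matches 1 base apart are the same site read on both strands. Cxcl10 held 2 matches to the NF-kB form, at 159 and 104, and 1 match to the interferon form, at 213. The Cxcl9 window held neither. Among the other members with an entry, Ccl20 had 1 match to the NF-kB form, and Cxcl12, Cxcl13, Ccl25 and Ccl28 had none. The third motif searched, TTCNNNGAA, a form of the interferon-gamma-activated site, was absent from all of these windows. Of 32851 RefSeq promoter windows of the same length, 4.65% held the NF-kB form, 2.98% the interferon form and 7.02% the third. These are matches of letters and not sites of binding, and Cxcl5 had no entry.

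Library totals ran from 13529204 to 20857918 counts. Macrod2 was at 0 to 0.409 CPM (read counts scaled to a common library size by TMM factors) in hom tumours. It was at 1.63 to 3.44 CPM in het tumours and 2.96 to 4.55 CPM in wt tumours. The hom tumours thus stood apart as labelled, while het and wt tumours overlapped. In wt 3, the ribosomal RNA precursor Rn45s took 27.0% of the counts, against at most 0.725% elsewhere. The tumours wt 1 and wt 2, though labelled large intestine, held 171 and 175 CPM of Gata4, a transcription factor of the proximal small intestine, close to the 164 CPM of het 4 and above all other large intestinal tumours (0.282 to 46.4 CPM). Fabp6, an ileal bile acid carrier, was at 2.06 and 1.69 CPM in wt 1 and wt 2 and at 2.26 CPM in het 4, and at 11.5 to 1650 CPM in the others. For this reason relations across tumours were computed without wt 1 and wt 2, over 15 tumours.

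Levels differed between the 10 genes over a wide range. In the deposited RPKM (reads per gene length and sequencing depth, so that genes can be set side by side), Ccl25 had the highest median over the 17 tumours, 96.9, followed by Cxcl1 with 10.98. Then came Cxcl2 with 3.73, Cxcl5 with 2.77, Cxcl10 with 2.09, Ccl28 with 1.22, Ccl20 with 1.02, Cxcl13 with 0.784, Cxcl9 with 0.780 and Cxcl12 with 0.590 RPKM. Ccl25 exceeded Cxcl1 in 16 of 17 tumours, Cxcl1 exceeded Cxcl2 in 17, and Cxcl2 exceeded Cxcl5 in 15. Below these the order was loose. Cxcl5 exceeded Cxcl10 in 11 tumours, Cxcl10 exceeded Ccl28 in 12 and Ccl28 exceeded Ccl20 in 12. Ccl20 exceeded Cxcl13 in 8, Cxcl13 exceeded Cxcl9 in 7 and Cxcl9 exceeded Cxcl12 in 10. Cxcl9, low in the median tumour, reached 25.6 RPKM in het 2, more than any member other than Ccl25 reached in any of the 17 tumours. Counts of Ccl20 (3 to 25 per tumour) and Cxcl13 (1 to 46) were low, so their differences are the least precise.

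**Figure D1:**
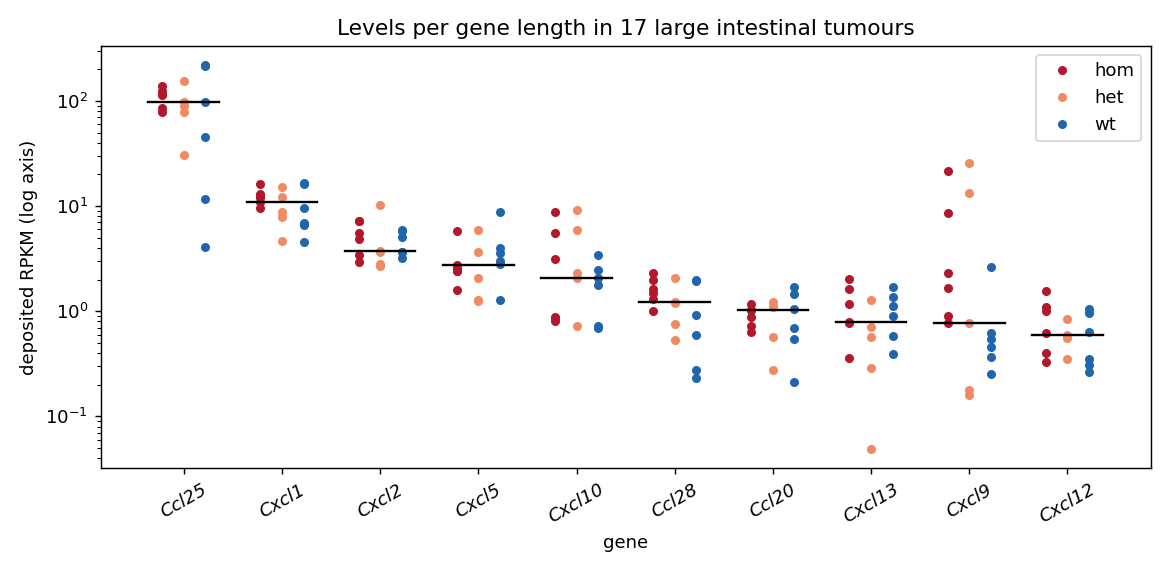
Deposited RPKM (log axis) of the 10 chemokine genes in 17 large intestinal tumours, ordered by the median (black line), 1 point per tumour coloured by genotype (hom, het, wt). Ccl25 lies above the rest in all but wt 4, and Cxcl9 spans the widest range, from 0.159 to 25.6 RPKM.

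Differences between tumours of one genotype were large. The SD of log2 CPM within a genotype had a median of 0.33 over all genes tested, and all 10 chemokine genes were above it. It was 2.20 for Cxcl9, 1.47 for Ccl25 and 1.26 for Cxcl10, at percentiles 99.6, 98.1 and 97.1 of all genes tested. Cxcl13 (0.92), Ccl28 (0.89) and Cxcl5 (0.82) followed, then Cxcl12 (0.75), Ccl20 (0.68), Cxcl1 (0.59) and Cxcl2 (0.57), the last at percentile 79.1. Without wt 1 and wt 2 the value for Ccl25 was 1.14 and that for Cxcl9 was 2.38. Counting noise, which is larger at low counts such as those of Ccl20 and Cxcl13, enters these SDs. The genes were not matched for level, and the part of counting noise was not tested.

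**Figure D2:**
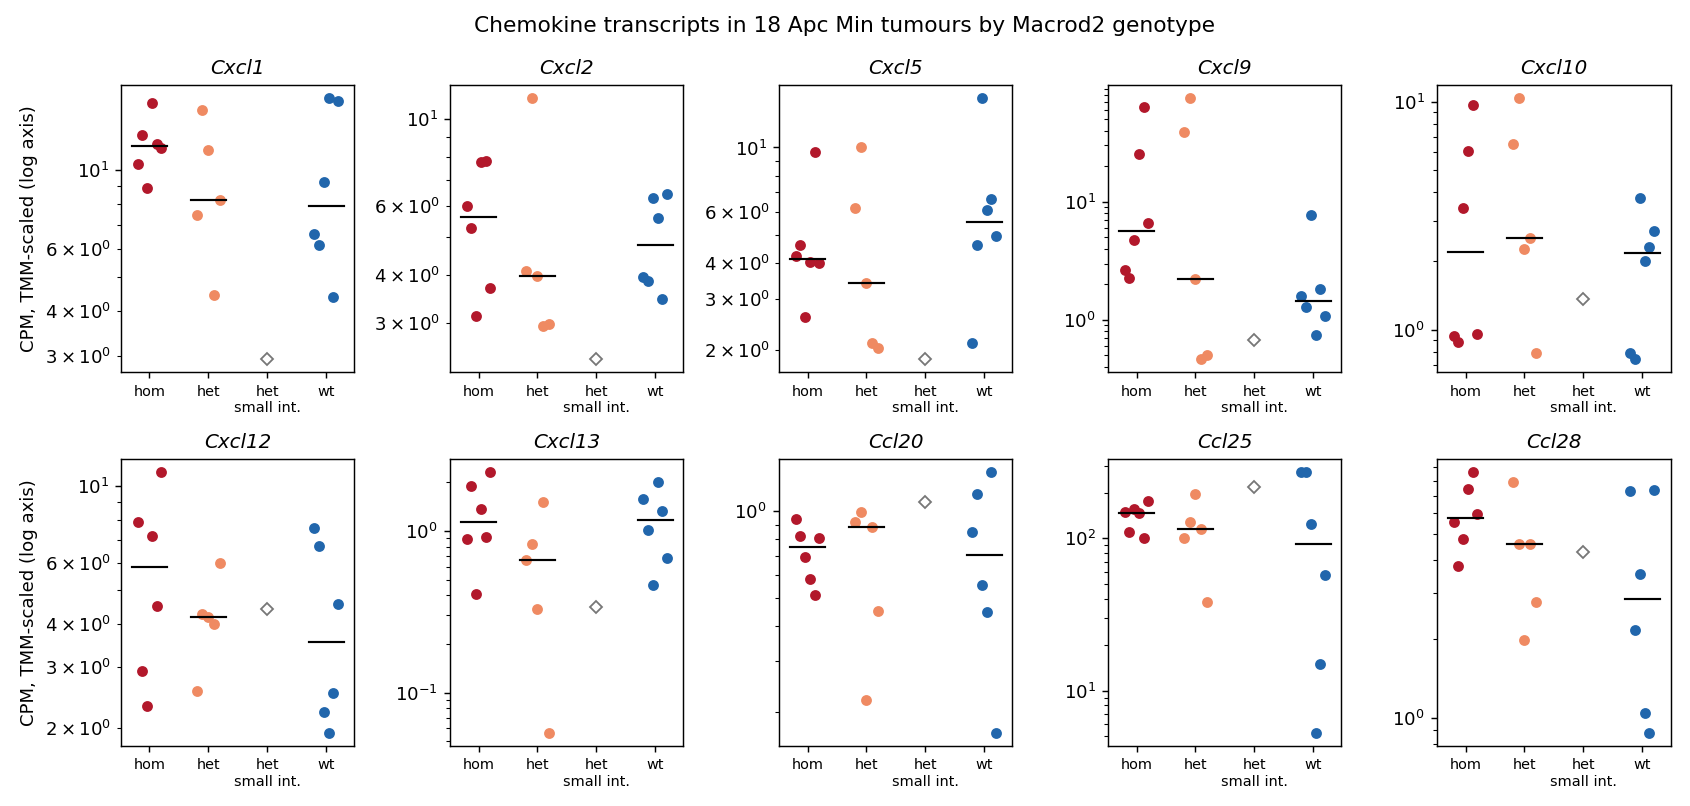
TMM-scaled CPM (log axis) of each chemokine gene, 1 point per tumour, for hom, het, the het tumour of the small intestine (open diamond) and wt, with the median as a black line. The genotypes overlap in every panel, and hom 5 and het 2 stand far above the other tumours for Cxcl9, at 63.1 and 75.8 CPM.

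Cxcl9, which had the widest spread of the 10 genes, ran from 2.28 CPM through a median of 5.68 to 63.1 CPM in hom tumours. In het tumours it was 39.0 in het 1, 75.8 in het 2, 2.20 in het 3, 0.466 in het 5 and 0.508 CPM in het 6. In wt tumours it ran from 0.745 through 1.43 to 7.78 CPM. Thus 4 tumours, het 2, hom 5, het 1 and hom 4 (25.3 CPM), were above 10 CPM, and the highest wt tumour was wt 3. The lowest hom tumour lay above every wt tumour except wt 3 and above het 3, het 5 and het 6, so hom and wt overlapped through wt 3 alone. In the small intestinal tumour, het 4, it was 0.678 CPM.

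The fitted Cxcl9 log2 fold change was 2.89 (SE 1.22, 95% interval 0.31 to 5.46) in hom against wt, with an unadjusted p of 0.0302 and an edgeR adjusted p of 0.285. In het against wt it was 3.32 (SE 1.26, 95% interval 0.65 to 5.98), with an unadjusted p of 0.0178 and an edgeR adjusted p of 0.999. Neither passed the adjusted threshold of 0.05, and both comparisons share the wt tumours. Without hom 5 the hom estimate was 1.84, and without het 2 the het estimate was 2.18, so single tumours carried much of each. With limma-voom the estimates were 2.33 for hom tumours (adjusted p = 0.397) and 1.44 for het tumours (adjusted p = 0.995). In hom against het the estimate was -0.43 (SE 1.14, edgeR adjusted p = 0.9998). These are bulk tumours, in which fewer cells of a type and less RNA per cell cannot be told apart.

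Cxcl10 ran from 0.886 CPM through 2.19 to 9.72 CPM in hom tumours. In het tumours it was 6.52, 10.4, 2.26, 2.54 and 0.790 CPM in het 1, het 2, het 3, het 5 and het 6. In wt tumours it ran from 0.744 through 2.16 to 3.79 CPM. The highest values were in het 2, hom 5, het 1 and hom 4 (6.08 CPM), the same 4 tumours as for Cxcl9. It gave a log2 fold change of 0.82 for hom against wt (SE 0.67, 95% interval -0.59 to 2.24, edgeR adjusted p = 0.529) and of 1.12 for het against wt (SE 0.70, 95% interval -0.35 to 2.59, edgeR adjusted p = 0.999), neither past the threshold.

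The tumours high in Cxcl9 and Cxcl10 also had the highest sums of interferon response genes. Over the 19 named genes, the sum was 786 CPM in hom 5, 541 CPM in hom 4, 884 CPM in het 1 and 739 CPM in het 2, and at most 472 CPM (hom 1) in any other large intestinal tumour. Gbp2, an interferon-induced GTPase, was at 143 CPM in hom 5, 54.1 CPM in hom 4, 74.7 CPM in het 1 and 113 CPM in het 2, against at most 17.5 CPM (wt 3) in the rest. Ifng itself, which encodes interferon gamma, was at 0 to 0.313 CPM and had no count in several tumours, het 1 among them.

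Cxcl9 and Cxcl10 followed the mean log2 CPM of the interferon list over the 15 tumours. For Cxcl9, Pearson r was 0.818 and Spearman rho 0.718 (permutation, unadjusted p = 0.00027 and 0.00333, adjusted p = 0.0027 and 0.025). For Cxcl10, r was 0.792 and rho 0.743 (permutation, unadjusted p = 0.00057 and 0.00221, adjusted p = 0.00342 and 0.0221). Both relations were weaker without the highest tumours, whose removal also narrows the spread of each gene. Without het 2 and hom 5, the farthest from the median of each gene, Cxcl9 had r = 0.713 and rho = 0.588 (permutation, adjusted p = 0.0428 and 0.187). Cxcl10 then had r = 0.673 and rho = 0.626 (permutation, adjusted p = 0.0548 and 0.148), so neither passed by both coefficients. Without wt 3, Cxcl9 had r = 0.816 and rho = 0.653 (permutation, adjusted p = 0.0036 and 0.0509) and missed the threshold by rho. Among the 11 tumours with Cxcl9 under 10 CPM, r was 0.243 for Cxcl9 and 0.339 for Cxcl10. That range was chosen after the values were seen and was set by Cxcl9 itself, which narrows its spread, so these low values do not show that the relation is absent there.

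Cxcl9 and Cxcl10 had r = 0.768 and rho = 0.696 with each other over the 15 tumours (permutation, unadjusted p = 0.00116 for r, adjusted p = 0.0522 and 0.0843), which did not pass. As deviations from the genotype mean they had r = 0.853 and rho = 0.832 (permutation, adjusted p = 0.0018 and 0.009), and both passed. Deviations were permuted over all 15 tumours although each genotype was centred on its own mean, so p-values from deviations may be too small. Without het 2 and hom 5, r was 0.5945 and rho 0.533 (permutation, adjusted p = 0.363 and 0.361). Over all alternatives the adjusted p for r ran from 0.0018 to 0.992.

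The 4 tumours high in Cxcl9 and Cxcl10 did not all stand out in genes of T and cytotoxic cells. The sum over 16 named genes was 29.8 CPM in hom 5, 48.3 CPM in hom 4, 43.4 CPM in het 1 and 51.7 CPM in het 2. It was highest in wt 2 (169 CPM) and wt 1 (75.9 CPM), where Cxcl9 was at 1.28 and 1.58 CPM. The remaining large intestinal tumours were between 16.5 and 53.5 CPM. By the mean log2 CPM of this list, hom 4 (1.23) and het 2 (0.982) were the highest of the 15 tumours, with hom 5 at 0.259. The lowest were wt 4 (-1.01), wt 5 (-0.707) and het 6 (-0.619), where Cxcl9 was also low (0.745, 1.81 and 0.508 CPM). Cxcr3, the receptor of both ligands, was at 0.409 CPM in hom 5, 0.486 CPM in hom 4, 0.561 CPM in het 1 and 0.574 CPM in het 2, with 0 to 0.364 CPM in the others. The relations of Cxcl9 and Cxcl10 with the T and cytotoxic cell list were computed over the 15 tumours, and neither passed by r or by rho. The same held for their relations with a list of macrophage genes. Falling short does not show that the genes and lists are unrelated, and the part of T cell numbers in the Cxcl9 and Cxcl10 values was not tested. Over the 15 tumours the genes most like Cxcl9 in order were Gbp2, Pdgfc, which encodes a platelet-derived growth factor, and the interferon-induced GTPase gene Tgtp2, each with rho = 0.950. Those most like Cxcl10 were the interferon-induced GTPase genes Irgm1 (rho = 0.904) and Gbp7 (0.861), with Stx6, a syntaxin of vesicle transport, between them (0.864).

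**Figure D3:**
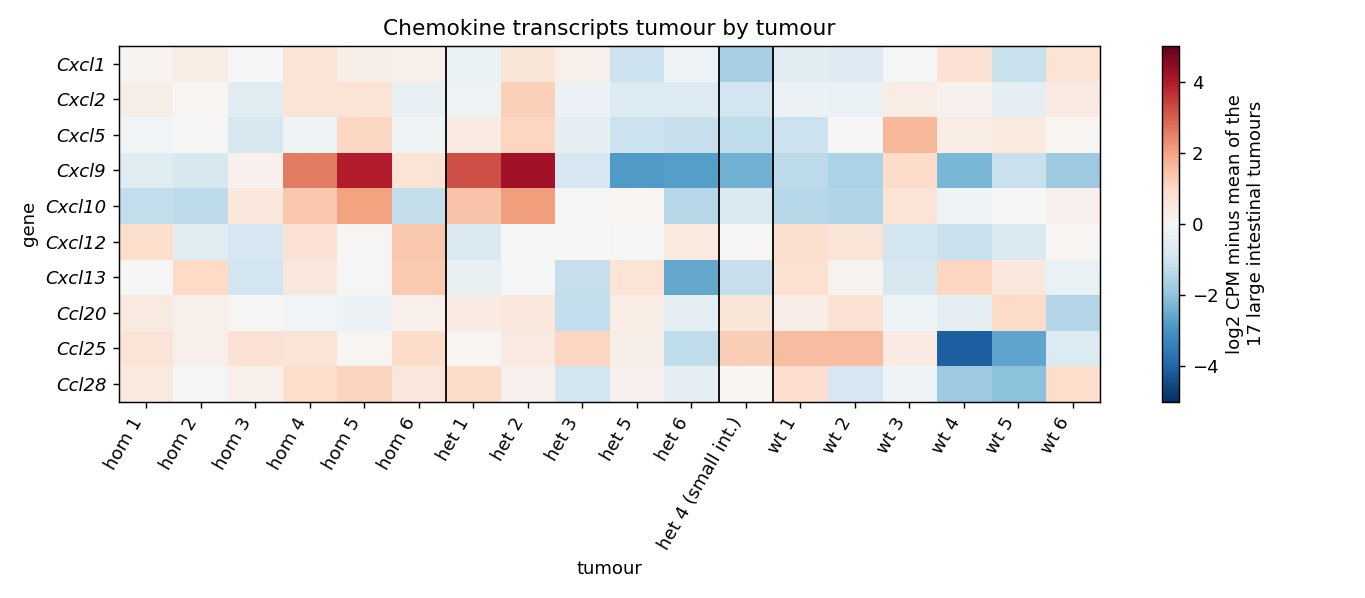
Log2 CPM of each chemokine gene in each tumour minus the mean over the 17 large intestinal tumours (colour, from -5 to 5), with hom, het, the het tumour of the small intestine and wt from left to right. Cxcl9 and Cxcl10 are raised together in hom 4, hom 5, het 1 and het 2, and Ccl25 is lowest in wt 4, at 5.29 CPM.

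The neutrophil chemokines were present in every tumour and varied less. Cxcl1 ran from 8.87 CPM through 11.7 to 15.5 CPM in hom tumours. It was 7.49, 14.8, 11.4, 4.45 and 8.24 CPM in het 1, het 2, het 3, het 5 and het 6, and ran from 4.399 through 7.93 to 15.9 CPM in wt tumours. The hom tumours lay within the wt range. Hom against wt gave a log2 fold change of 0.27 (95% interval -0.39 to 0.93, edgeR adjusted p = 0.662) and het against wt one of -0.07 (95% interval -0.76 to 0.62, edgeR adjusted p = 0.999).

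Cxcl2 ran from 3.13 CPM through 5.63 to 7.83 CPM in hom tumours. It was 4.08, 11.3, 3.97, 2.95 and 2.99 CPM in het 1, het 2, het 3, het 5 and het 6, and ran from 3.46 through 4.76 to 6.44 CPM in wt tumours. Only het 2 stood above the rest. Cxcl5 ran from 2.61 CPM through 4.13 to 9.62 CPM in hom tumours. It was 6.17, 10.03, 3.42, 2.12 and 2.03 CPM in those het tumours, and ran from 2.12 through 5.54 to 14.8 CPM in wt tumours. High single tumours (hom 5, het 2 and wt 3) occurred in each genotype. The log2 fold change of Cxcl2 was 0.17 in hom against wt (95% interval -0.53 to 0.87, edgeR adjusted p = 0.809), and that of Cxcl5 was -0.44 (95% interval -1.39 to 0.51, edgeR adjusted p = 0.622).

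Of 30 relations computed between a chemokine gene and a marker or response list over the 15 tumours, 5 passed an adjusted p of 0.05 by both Pearson's r and Spearman's rho. They were Cxcl2 with the NF-kB and IL-17 list, Cxcl2 with the neutrophil list, Ccl25 with the proximal region list, and Cxcl9 and Cxcl10 with the interferon list, described above. Cxcl2 followed the NF-kB and IL-17 list with r = 0.835 and rho = 0.864 (permutation, unadjusted p = 0.00015 and 0.00011, adjusted p = 0.00225 and 0.00165). Without het 2 and het 5, the tumours farthest from the median of Cxcl2, r was 0.770 and rho 0.813, and both still passed (permutation, adjusted p = 0.026 and 0.0184).

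Cxcl2 followed the neutrophil list with r = 0.792 and rho = 0.693 (permutation, unadjusted p = 0.00051 and 0.00576, adjusted p = 0.00342 and 0.0346). Without het 2 and het 5, r was 0.650 and rho 0.571 (permutation, adjusted p = 0.0701 and 0.187), which did not pass. Leaving out the tumours farthest in Cxcl2 narrows its spread, so the fall does not show that the relation rested on them. The neutrophil genes S100a8 and S100a9, which encode calprotectin, were at 8.46 and 10.7 CPM in het 2, the highest of all tumours. S100a9 was also among the genes most like Cxcl1 (rho = 0.800) and Cxcl2 (rho = 0.821). For Cxcl2 the others were Tubb3, a neuronal tubulin (0.821), and the co-chaperone gene Dnajc12 (0.814), and for Cxcl1 they were the eosinophil chemokine gene Ccl11 (0.793) and S100a8 (0.779). The genes most like Cxcl5 were Dnajc12 (0.804), the ubiquitin ligase gene Rnf145 (0.793) and Fetub, which encodes fetuin-B (0.782).

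Cxcl1 with the NF-kB and IL-17 list had r = 0.648 and rho = 0.611 (permutation, adjusted p = 0.0272 and 0.0543), and with the neutrophil list r = 0.693 and rho = 0.611 (permutation, adjusted p = 0.0138 and 0.0543). Cxcl5 with the NF-kB and IL-17 list had r = 0.729 and rho = 0.629 (permutation, adjusted p = 0.0101 and 0.0543). None of these passed by both coefficients. Cxcr2, the receptor of the 3 ligands, was at 1.36 CPM in hom 4, at 1.36 CPM in het 2 and between 0.110 and 0.886 CPM elsewhere in the large intestine. Among the 45 pairs of chemokine genes, none passed by both coefficients. Beside Cxcl9 with Cxcl10, those highest by both coefficients were Cxcl1 with Cxcl2 (r = 0.695, rho = 0.711) and Cxcl2 with Cxcl5 (r = 0.690, rho = 0.693), each with an adjusted p of 0.0718 for r and 0.0843 for rho (permutation).

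**Figure D4:**
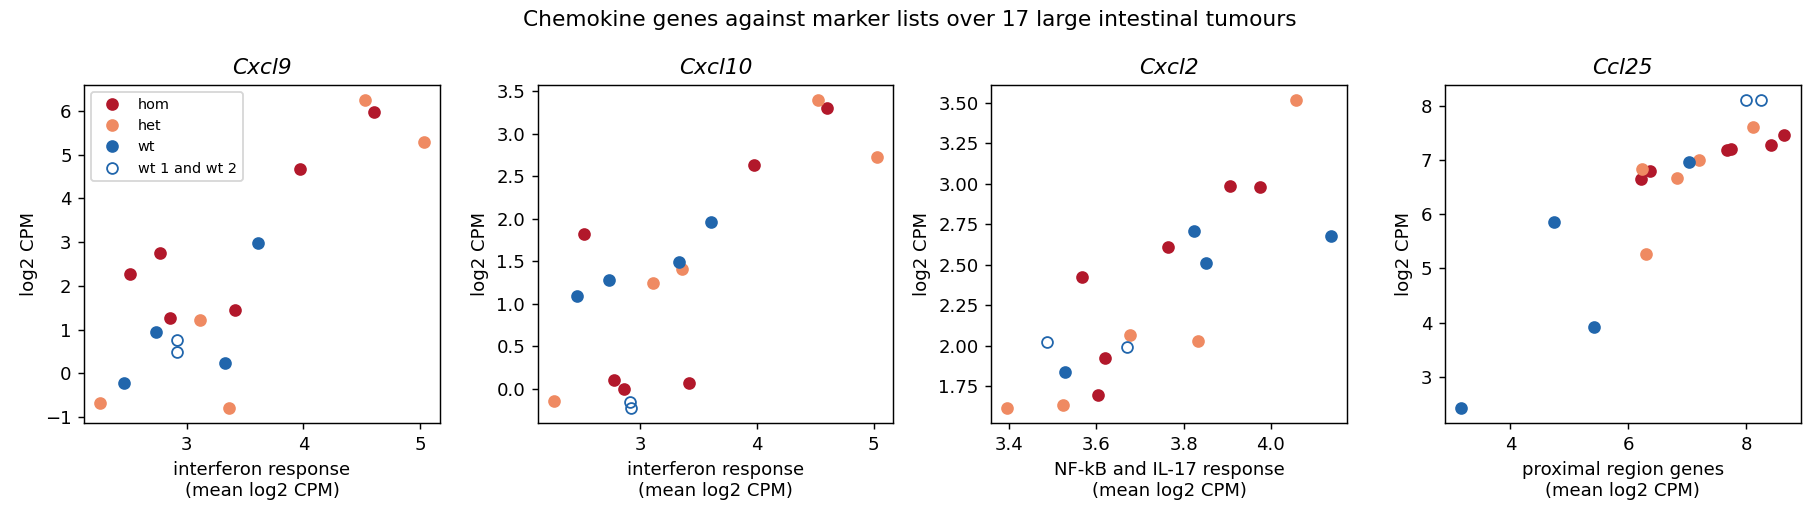
Log2 CPM of Cxcl9, Cxcl10, Cxcl2 and Ccl25 (y axes) against the mean log2 CPM of a gene list (x axes), 1 point per large intestinal tumour coloured by genotype (hom, het, wt), with wt 1 and wt 2 as open circles. Cxcl2 and Ccl25 follow their lists (r = 0.835 and 0.869 without wt 1 and wt 2), Cxcl2 along the whole range. For Ccl25 a few wt tumours lie apart at the lower left, and for Cxcl9 and Cxcl10 a few tumours lie apart at the upper right.

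Ccl25 was the most abundant member and varied most in wt tumours. It ran from 101 CPM through 147 to 175 CPM in hom tumours. It was 101, 128, 195, 114 and 38.2 CPM in het 1, het 2, het 3, het 5 and het 6. In wt 1 to wt 6 it was 273, 274, 125, 5.29, 15.01 and 57.6 CPM. The hom tumours formed a narrow band inside the wt range, and the wt tumours lay both above and below it. In the small intestinal tumour, het 4, it was 218 CPM.

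For Ccl25 the log2 fold change of hom against wt was 0.11 (95% interval -1.33 to 1.54, edgeR adjusted p = 0.951) and that of het against wt was -0.16 (95% interval -1.67 to 1.35, edgeR adjusted p = 0.999). These values rested on wt 1 and wt 2. Without both, hom against wt gave 1.47 and het against wt gave 1.2, with edgeR adjusted p of 0.182 and 0.622, still short of the threshold. Over all alternatives the adjusted p ran from 0.182 to 0.997 for hom and from 0.622 to 0.99999 for het tumours.

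Ccl25 followed the proximal region list of small intestinal markers, such as the apolipoprotein genes Apoa1 and Apoa4 and the ileal gene Fabp6. These genes did not all move together, since Fabp6 was low in wt 1 and wt 2, as given above. Their sum over 8 genes was lowest in wt 4 (319 CPM), wt 5 (987 CPM) and wt 6 (1370 CPM), the 3 wt tumours with the lowest Ccl25, then in het 6 (2122 CPM), the het tumour with the lowest. It was highest in wt 2 (40280 CPM) and wt 1 (27225 CPM). Over the 15 tumours r was 0.869 and rho 0.939 (permutation, unadjusted p = 3e-05 and 1e-05, adjusted p = 9e-04 and 3e-04), where 1e-05 is the smallest value the permutations could give. Without wt 4 and wt 5, the farthest from the median, r was 0.782 and rho 0.918 (permutation, adjusted p = 0.026 and 9e-04). Taken as deviations from each genotype's mean, r was 0.751 and rho 0.679 (permutation, adjusted p = 0.00665 and 0.0285, with the limit given above for deviations). The genes most like Ccl25 were Maoa, a monoamine oxidase (rho = 0.982), Fahd1 (0.982) and Tnfaip8l2 (0.979). Ccr9, the receptor of Ccl25, was at 0 to 1.62 CPM, with the highest value in wt 2.

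Ccl28 ran from 3.80 CPM through 5.77 to 8.65 CPM in hom tumours. It was 7.90, 4.595, 1.98, 4.61 and 2.76 CPM in het 1, het 2, het 3, het 5 and het 6, and ran from 0.880 through 2.84 to 7.40 CPM in wt tumours. The lowest values were in wt 4 and wt 5, as for Ccl25, and the groups overlapped. Hom against wt gave a log2 fold change of 0.67 (SE 0.47, 95% interval -0.32 to 1.66, edgeR adjusted p = 0.464). Ccl25 and Ccl28 had r = 0.703 and rho = 0.225 (permutation, adjusted p = 0.0819 and 0.881), and r was -0.036 without wt 4 and wt 5. Leaving out these tumours, the farthest in Ccl25, narrows its spread, so the fall does not show that the relation rested on them. As deviations from the genotype mean the pair had r = 0.548 and rho = 0.461 (permutation, adjusted p = 0.170 and 0.298). The genes most like Ccl28 were Hepacam2 (rho = 0.925), Cfhr2, a complement factor H-related gene (0.896), and the alpha-1-antitrypsin gene Serpina1b (0.896). Ccr10 was at 0 to 0.609 CPM.

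Ccl20 was at 0.512 to 0.938 CPM in hom tumours, 0.220 to 0.992 CPM in het tumours and 0.169 to 1.37 CPM in wt tumours. In hom against wt its log2 fold change was -0.10 (95% interval -0.99 to 0.79, edgeR adjusted p = 0.921). With the epithelial list it had r = -0.466 and rho = -0.407 (permutation, adjusted p = 0.137 and 0.234). Ccr6 was at 0 to 0.165 CPM. Cxcl13 was at 0.406 to 2.32 CPM in hom tumours, 0.056 to 1.502 CPM in het tumours and 0.463 to 2.01 CPM in wt tumours. In hom against het its log2 fold change was 0.93 (SE 0.56, 95% interval -0.24 to 2.11, edgeR adjusted p = 0.9998). Cxcl13 and the B cell list had r = 0.091 and rho = 0.068 (permutation, adjusted p = 0.821 and 0.937), and 3 of the 11 B cell genes were tested, since the rest had too few counts.

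Cxcl12 ran from 2.32 CPM through 5.85 to 11.01 CPM in hom tumours. It was 2.55, 4.28, 4.19, 3.99 and 5.98 CPM in het 1, het 2, het 3, het 5 and het 6, and ran from 1.94 through 3.55 to 7.58 CPM in wt tumours. The highest wt values were in wt 1 (7.58 CPM) and wt 2 (6.70 CPM). In hom against wt the log2 fold change was 0.45 (SE 0.41, 95% interval -0.42 to 1.32, edgeR adjusted p = 0.576). It was 1.09 without wt 1 and wt 2 (edgeR adjusted p = 0.150, the lowest of a range from 0.150 to 0.842 over all alternatives). With the endothelial list Cxcl12 had r = 0.752 and rho = 0.579 (permutation, adjusted p = 0.00355 and 0.0708), and without hom 6 and wt 4 r was 0.533. The genes most like it were Agpat4 (rho = 0.900), the urea cycle enzyme gene Cps1 (0.896) and Tie1, an endothelial receptor kinase (0.893). Its receptors were the most abundant on the list, with Cxcr4 at 3.77 to 17.4 CPM and Ackr3 at 4.02 to 13.6 CPM.

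By genotype, none of the 10 chemokine genes passed edgeR's quasi-likelihood test at an adjusted p of 0.05 in hom against wt. There 0.00701% of all genes tested passed (1 gene, Macrod2 itself). None passed in het against wt, where 0% of all genes passed, or in hom against het, where 0.00701% passed (Macrod2 again). At an unadjusted p under 0.05, 1 of 10 (Cxcl9, higher) was found in hom against wt, where 16.0% of all genes lay (5.35% higher and 10.6% lower), 1 of 10 (Cxcl9, higher) in het against wt, where 2.85% lay (1.18% higher and 1.67% lower), and 0 of 10 in hom against het, where 2.0% lay (0.974% higher and 1.03% lower). With DESeq2 the unadjusted counts were 1, 1 and 0 of 10, and with limma-voom they were 1, 0 and 0. Both tools called none of the 10 after adjustment. The groups overlapped for all 10 genes in all 3 comparisons, while 0.701%, 0.126% and 0.266% of all genes did not overlap.

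The median log2 fold change of the 10 was 0.22 in hom against wt, -0.07 in het against wt and 0.21 in hom against het, beside -0.03, -0.03 and -0.01 over all genes tested. Estimates were above 0 for 8, 4 and 8 of the 10, and for 45.7%, 43.2% and 48.2% of all genes. The estimates of the fibroblast list, matrix and receptor genes of stromal cells, were above 0 for 10 of 10 in hom against wt (median 0.58, 5 of 10 at an unadjusted p under 0.05), 9 of 10 in het against wt (median 0.14) and 10 of 10 in hom against het (median 0.37), none past the adjusted threshold. Their summed level was 374 to 869 CPM in hom tumours, 292 to 592 CPM in het tumours and 258 to 493.1 CPM in wt tumours, and their part in the chemokine estimates was not tested. The intervals show what remained possible. In hom against wt they ran from -0.39 to 0.93 for Cxcl1 and from -0.53 to 0.87 for Cxcl2, and were wider for Cxcl10 (-0.59 to 2.24) and Ccl25 (-1.33 to 1.54). A p short of the threshold does not show that the genotypes were alike.

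**Figure D5:**
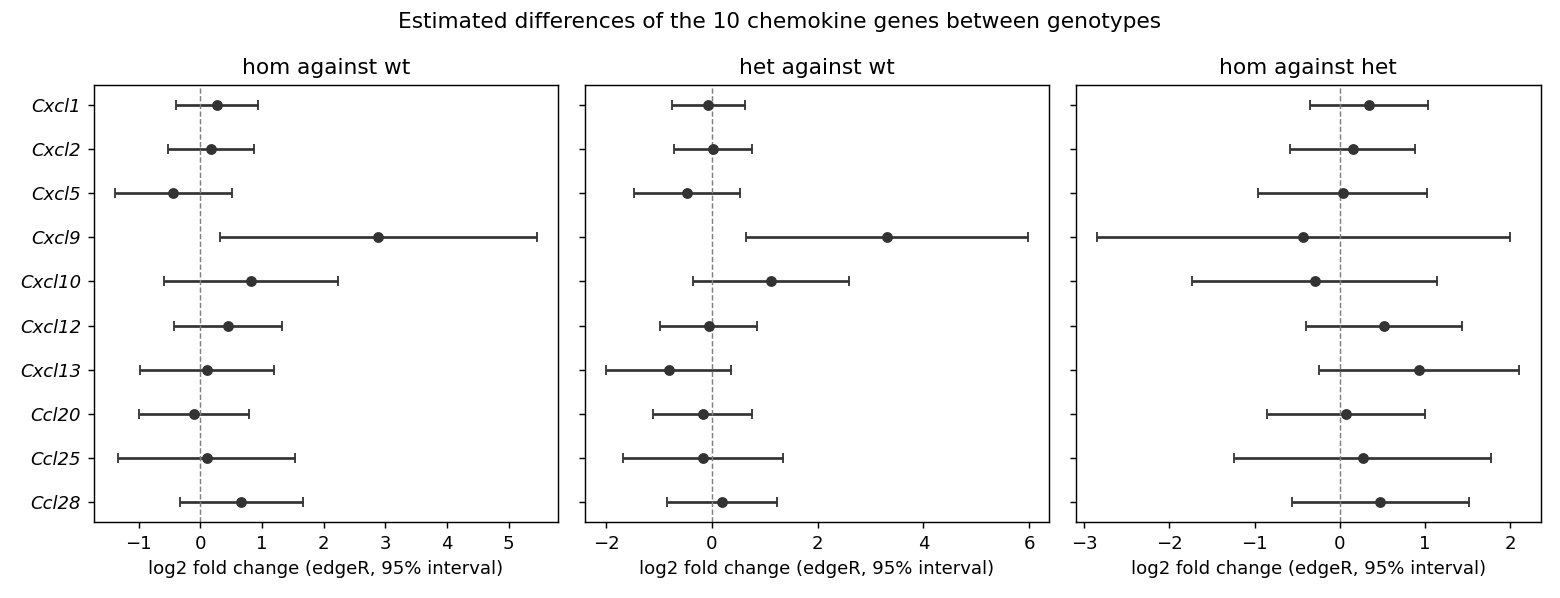
Fitted log2 fold change (x axis) with 95% interval for the 10 chemokine genes in hom against wt, het against wt and hom against het, from edgeR. All intervals include 0 except those of Cxcl9 in hom against wt (0.31 to 5.46) and het against wt (0.65 to 5.98), neither of which passed after adjustment over all genes.

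Of 12 receptor genes, 5 had enough counts to be tested and none passed in any comparison. Ackr4, a scavenger receptor that binds Ccl25, was at 3.83 to 8.84 CPM in hom tumours and at 1.58 to 3.79 CPM in wt tumours, which did not overlap. Its log2 fold change was 1.15 (SE 0.42, edgeR adjusted p = 0.261), with an unadjusted p of 0.013. Over all genes tested in hom against wt, 0.701% did not overlap and 16.0% had an unadjusted p under 0.05. In het tumours Ackr4 ran from 1.502 to 8.61 CPM, with het 1 and het 2 the highest. Cxcr1, Ccr3, Cxcr5 and Ackr1 were at or under 2.22 CPM in every large intestinal tumour.

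Among 26 other chemokine genes, 18 were tested and none passed in any comparison. The estimate was lower for 14 of 18 in hom against wt and for 15 of 18 in het against wt, 2 comparisons that share the wt tumours. Over all 14271 genes tested it was lower for 7751 and 8111. In hom against wt the smallest p belonged to Ccl2, a monocyte chemokine (log2 fold change -1.18, SE 0.41), Cxcl17, a mucosal chemokine (-0.78, SE 0.28), and Ccl7, a further monocyte chemokine (-2.06, SE 0.75), with edgeR adjusted p of 0.261, 0.261 and 0.262. Ccl2 averaged 2.40 ± 1.21 CPM in hom tumours and 5.38 ± 2.37 CPM in wt tumours (SD, n = 6 each, edgeR fit). In het against wt they were Cxcl17 (-0.77), Ccl11 (-0.98) and the platelet chemokine gene Ppbp (-1.42), each with an edgeR adjusted p of 0.999. In hom against het they were Ccl17 (1.05), Ccl11 (0.60) and Ccl7 (-1.08), each with an edgeR adjusted p of 0.9998.

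Of the 18 NF-kB and IL-17 response genes, 14 were tested, and the estimate was higher for 7 and lower for 7 in hom against wt, with 8 and 6 in het against wt and 6 and 8 in hom against het. Of the 19 interferon response genes, 18 were tested. The estimate was higher for 15 in hom against wt, for all 18 in het against wt and for 1 in hom against het, with medians of 0.27, 0.85 and -0.35. No gene of either list passed in any comparison, and the high values of hom 4, hom 5, het 1 and het 2 enter these medians. Over all genes tested, 45.7%, 43.2% and 48.2% of the estimates were above 0 in hom against wt, het against wt and hom against het.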

How the data were processed

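The deposited table holds counts, as whole numbers of reads per gene (24062 genes, 18 libraries), and RPKM computed by the authors from the counts, the gene length and the library size. Trimmomatic, TopHat, featureCounts (Subread 1.4.5-p1) and the mm10 build are named, per the submitters' processing notes, without options. Per the labels' protocols, the TruSeq Stranded Total RNA kit was used, although polyA RNA is entered as the molecule. Per library the deposited RPKM were a constant multiple of counts per kilobase and library total (largest relative spread 6.32e-09).

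Tumours were grouped by their genotype label and their source label. The members, gene lists and tests were chosen with earlier results of these data known. Counts of the 17 large intestinal tumours were filtered with filterByExpr, scaled by TMM and fitted with edgeR 4.0.16 (robust quasi-likelihood, R 4.3.3), with contrasts hom against wt, het against wt and hom against het, and Benjamini-Hochberg adjustment over 14271 genes at 0.05. The wt tumours serve 2 of these comparisons. The titles name mice and give no separate cultures or batches, so p-values measure the spread between these tumours. Levels are CPM with TMM factors over 18 libraries. Relations used log2 CPM (prior count 2) over 15 tumours, two-sided permutation tests with 100000 resamples, and adjustment over 45 pairs or 30 gene-list relations. List scores are the mean log2 CPM of the tested genes, chemokine members left out. The genes most alike were the 3 with the highest rho, with a mean log2 CPM of at least 0 and predicted genes left out, a description without a test. The named genes were the 10 members, 12 receptors, the 3 other chemokines with the smallest p per comparison and the genes most alike; Gata4, Fabp6, Apoa1, Apoa4, Gbp2, S100a8 and S100a9 were picked from the lists after their values were seen. Positions came from GENCODE M21 and promoters from RefSeq (GRCm38.p6), where 9 of 10 members matched. No library repeated another (lowest chi-square per degree of freedom 20.3). The scripts were tested on simulated counts. Alternatives were DESeq2 1.42.0, limma-voom (limma 3.58.1), RLE factors, no filter, the 2 genotypes alone, a replicate block, leaving out tumours and, for relations, other sets of tumours.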

Additional observations from a re-analysis of the deposited data

Results flagged for a closer look

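Within a genotype, the highest or lowest tumour was compared with its neighbour by Dixon's test for each of the 10 genes. Of 30 groups in all, 4 stood apart, each by its highest value. Chance gives about 5% of groups where values are normally distributed and groups are separate. Here CPM was used without logs and the genes share tumours, so the 4 are not read as an excess. Cxcl2 was 11.3 CPM in het 2, with 4.08 CPM as the next het value. Cxcl5 was 9.62 CPM in hom 5, with 4.62 CPM next among hom tumours. Cxcl5 was 14.8 CPM in wt 3, with 6.65 CPM next among wt tumours. Cxcl9 was 7.78 CPM in wt 3, with 1.81 CPM next among wt tumours. Of the counts of wt 3, 27.0% fell on Rn45s, and its part in these values was not tested. The high Cxcl9 values of het 1, het 2, hom 4 and hom 5 did not stand out in this test, in which hom and het each held a pair of them.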

How the results depend on the processing

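None of the 10 chemokine genes was called in any comparison under any of the 24 alternatives. Over all genes, hom against wt gave 1 call, with 22 by DESeq2, 2 with the replicate block and 1 to 2 when single tumours were left out. Hom against het gave 1 call, with 0 from the 2 genotypes alone and 0 with the replicate block. The titles state no pairing by mouse number. Of 16 same-numbered pairs, 4 had correlated deviations over 0.1 (-0.453 to 0.325). Other differences between tumours enter these correlations, so they cannot show whether the tumours were paired. Of the 45 pairs of genes 0 passed, and 1 (Cxcl9 with Cxcl10) did as deviations from the genotype mean. Of the 30 gene-list relations 5 passed, with 9 over all 17 tumours, 9 as deviations, 1 in the 11 tumours with Cxcl9 under 10 CPM, 9 in the 12 tumours without wt 4, wt 5 and wt 6, and 3 without the 2 farthest tumours. The cause was not tested.

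Signs of small, uncalled log2 fold changes turned as follows. With limma-voom the value was 0.14 for Ccl20 in hom against wt, -0.13 for Cxcl2, 0.07 for Cxcl12 and 0.77 for Ccl25 in het against wt, and 0.89 for Cxcl9 in hom against het. With the replicate block it was 0.09 for Ccl20 in hom against wt, and 0.09 for Cxcl1, -0.07 for Cxcl2, 0.06 for Cxcl12 and 0.16 for Ccl25 in het against wt. Without wt 1 and wt 2 it was 0.19 for Ccl20 in hom against wt, and -0.09 for Cxcl2, 0.57 for Cxcl12, 0.11 for Ccl20 and 1.2 for Ccl25 in het against wt. With single tumours left out, hom against wt ran from -0.74 to 0.0043 for Cxcl5, -0.11 to 0.34 for Cxcl13, -0.29 to 0.2 for Ccl20 and -0.1 to 0.53 for Ccl25. Het against wt ran from -0.29 to 0.14 for Cxcl1, -0.49 to 0.18 for Cxcl2, -0.19 to 0.19 for Cxcl12, -0.35 to 0.13 for Ccl20, -0.46 to 0.26 for Ccl25 and -0.09 to 0.55 for Ccl28. Hom against het ran from -0.29 to 0.5 for Cxcl5, -1.5 to 0.73 for Cxcl9, -0.87 to 0.28 for Cxcl10 and -0.14 to 0.23 for Ccl20. Cxcl9 kept its sign against wt, at 1.84 to 3.74 in hom and 1.44 to 4.16 in het tumours, with adjusted p from 0.166 to 0.539 and from 0.619 to 1. Low counts of Ccl20 and Cxcl13, and 5 or 6 tumours per genotype, limit what could be detected.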
